A study of Mus musculus with 3 samples.

Results

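Of the 18029 genes counted in spleen T cells after allogeneic bone marrow transplantation, 9 genes of intracellular proteolysis were followed, chosen by name. The choice of all 9 was made with earlier results of these data known, so their tests are not blind to these data. They were the protease inhibitor genes Ctla2a and Ctla2b, the cathepsin genes Ctsb, Ctsd, Ctsl and Ctsw, and the serpin genes Serpina3g, Serpinb6b and Serpinb9. All 9 were found by symbol and all 9 passed the filter on low counts in both lineages. Ctla2a was put forward because its level at the higher dose of cyclosporin (CSA), a calcineurin inhibitor, was already known from these data, so every value of Ctla2a that involves that dose is given as a description with no test. Irradiated B6D2F1 mice received B6 bone marrow, B6 T cells and 1000 TEa cells, which carry a transgenic T cell receptor for a recipient antigen. From day 0 to day 6 they were given daily saline, 5 mg/kg CSA (the low dose) or 50 mg/kg CSA (the high dose), and spleens were taken on day 7. There were 6 mice per group, combined in 3 pools of 2 mice that were marked by hashtag antibodies, and the sorted CD4+ and CD8+ fractions of each treatment shared 1 droplet run. A capture and its treatment therefore cannot be told apart, and the CD4+ and CD8+ sums of a pool come from the same mice and the same capture. B6D2F1 mice carry the CD90.2 allele of the sort as B6 mice do, and the antibodies named in the labels do not separate donor from host cells, while the study calls the sorted cells donor T cells.

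Lysosomes hold cathepsins, proteases that are made as inactive precursors and freed by removal of a propeptide. Ctla2a and Ctla2b encode small proteins that resemble the propeptide of cathepsin L, and the Ctla2a product inhibits cathepsin L-like cysteine proteases. Ctsb and Ctsl encode cysteine cathepsins, Ctsd an aspartic cathepsin, and Ctsw a cathepsin found mainly in cytotoxic lymphocytes. Serpins trap proteases in an irreversible complex. The product of Serpina3g inhibits cathepsins B and L and is induced by interferon-γ, that of Serpinb9 inhibits granzyme B, and that of Serpinb6b inhibits granzyme A, so that the serpins of clade B guard cytotoxic cells against their own granule proteases.

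Ctla2a (ENSMUSG00000044258) lies on the minus strand of chromosome 13 at 60934155 to 60936625 in mm10, and Ctla2b lies beside it on the same strand at 60895350 to 60897447. Ctsl (64359337 to 64370890, minus), Serpinb6b (32965209 to 32979067, plus) and Serpinb9 (33003250 to 33017957, plus) are on chromosome 13 as well. Serpina3g is on chromosome 12 (104236245 to 104241939, plus), Ctsb on chromosome 14 (63122462 to 63145923, plus), Ctsd on chromosome 7 (142375911 to 142388038, minus) and Ctsw on chromosome 19 (5465043 to 5468507, minus). The 250 bases before a RefSeq start (GRCm38.p6) are shown for the genes with the 3 largest changes in both lineages at the high dose, read 5′ to 3′ on the strand of the gene. They lie at chr13:60936626-60936875 for Ctla2a, chr13:60897448-60897697 for Ctla2b and chr12:104235897-104236146 for Serpina3g. Capitals mark a match to TGANTCA, the letters bound by AP-1 factors, in the first pair and a match to TTCNNNGAA, the letters of an interferon-γ activated site, in the last.
Ctla2a: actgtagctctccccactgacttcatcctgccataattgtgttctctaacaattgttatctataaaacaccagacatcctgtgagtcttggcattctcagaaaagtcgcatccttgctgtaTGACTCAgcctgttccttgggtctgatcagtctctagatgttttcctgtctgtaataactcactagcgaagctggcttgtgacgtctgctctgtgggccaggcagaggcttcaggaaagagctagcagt
Ctla2b: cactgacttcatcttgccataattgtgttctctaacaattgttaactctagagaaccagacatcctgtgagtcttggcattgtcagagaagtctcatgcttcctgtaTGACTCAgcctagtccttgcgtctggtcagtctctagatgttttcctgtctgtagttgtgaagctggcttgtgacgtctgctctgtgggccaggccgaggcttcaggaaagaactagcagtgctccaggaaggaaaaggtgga
Serpina3g: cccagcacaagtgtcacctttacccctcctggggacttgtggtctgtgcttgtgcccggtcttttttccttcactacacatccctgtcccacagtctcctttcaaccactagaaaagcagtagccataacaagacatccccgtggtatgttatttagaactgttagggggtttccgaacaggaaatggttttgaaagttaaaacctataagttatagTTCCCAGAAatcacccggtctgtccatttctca
The upstream sequences of Ctla2a and Ctla2b were the same at 208 of 228 aligned bases (91.2%), and that of Serpina3g matched them at 52.7% and 56.2% of aligned bases. TGANTCA stood at -129 from the start in Ctla2a and at -143 in Ctla2b, and among all 32851 promoters windows of this length held it in 6.75%. TTCNNNGAA stood at -33 in Serpina3g and at -157 in Ctla2a, and was held by 7.02% of promoters. GGAAA, the core letters of NFAT sites, was found in all 3 sequences and in 55.6% of promoters, and TGACGTC was found at -50 in Ctla2a and at -72 in Ctla2b and in 2.78% of promoters. Ctla2a has a further start, with the bases before it at chr13:60936567-60936816. From that start TGANTCA stood at -188, TTCNNNGAA at -216 and TGACGTC at -109. The letters were searched on both strands and were chosen after the sequences were read, and a match is a description of the letters only. An upstream sequence was at hand for 7 of the 9 genes, all but Ctsb and Ctsw.

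Counts of some members could be shared with near copies. Of all stretches of 50 bases in the annotated transcripts of Ctla2b, 69.0% also occur in another gene, mostly Gm49391, and 14.8% occur in Ctla2a. The share was 25.5% for Ctla2a, with 11.4% in common with Ctla2b, 32.4% for Ctsd, 15.5% for Serpina3g and at most 6.46% for the other members. The libraries were read from the 5′ end of the transcript, and how reads of such stretches were assigned is not given in the sources used here, so the values of Ctla2b are the least certain.

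The table held unique molecular identifiers (UMIs), each counted as 1 RNA molecule, of 10371 CD4+ and 10833 CD8+ cells. The 280 TEa cells, all CD4+, were left out. A pool then held 875 to 1479 CD4+ cells with 3994968 to 7592334 UMIs and 692 to 1615 CD8+ cells with 4392100 to 11454636 UMIs. Depth rose with dose: the median UMI count per cell was 3097, 4396 and 5979.5 in CD4+ cells and 4108, 6121.5 and 7183 in CD8+ cells with saline, low dose and high dose. Of 20986 distinct cell barcodes, 218 were found in more than 1 capture. The 4 T cell genes Cd3e, Cd3d, Cd3g and Trac summed to 3016 to 4026 CPM, counts scaled to the same total in each pool, in every pool. Cd4 was at 0 in CD8+ cells and Cd8a at 0 in CD4+ cells of every pool. How the cells of a shared run were assigned to a lineage before deposit was not checked, and an assignment by these genes would fix both zeros. The zeros are therefore no measure of purity. Cd8b1 was not at 0 in CD4+ cells, and it stood at 10.3% to 11.9% of the CD8+ level of the same pool with saline, 5.94% to 6.72% at the low dose and 0.784% to 0.902% at the high dose. The summed level of 8 macrophage and monocyte genes was 62.3 to 153 CPM, with no gene of the list at 0, while NK cell and mast cell genes summed to at most 11.2 and 3.39 CPM, with Klra8 and Fcer1a at 0 in most groups. Neutrophil genes summed to 56.6 to 186 CPM, and erythroid genes to 18.7 to 40.4 CPM at the high dose against 2.98 to 14.7 CPM in the other groups. Their part in the results was not tested.

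Counts were summed over the cells of a pool, scaled by the trimmed mean of M-values (TMM) and given as CPM, mean ± SD over 3 pools. A change is a log2 ratio with its standard error (SE) from edgeR, with p adjusted over all genes tested and called under 0.05. Pools are separate pairs of mice, so p measures the spread between pools. In such sums, fewer cells of a type and less RNA per cell cannot be told apart. TMM sets the middle gene to no change. With plain library size the median log2 change of all genes was -0.37 in CD4+ and -0.43 in CD8+ cells at the low dose and -0.45 and -0.53 at the high dose against saline, so changes are relative to the chosen scale. Under library size, the genes called higher and lower at the high dose went from 3669 and 3785 to 1599 and 6239 in CD4+ cells and from 4021 and 4003 to 1690 and 6794 in CD8+ cells, and at the low dose from 2758 and 2709 to 926 and 5718 and from 3241 and 3282 to 1180 and 6270.

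At the low dose against saline, Ctla2a, Ctsd, Ctsw, Serpina3g and Serpinb6b rose in both lineages and no member fell, 5 of 9 in CD4+ and 5 of 9 in CD8+ cells. Of all genes 51.7% were called in CD4+ cells (26.1% higher, 25.6% lower) and 60.2% in CD8+ cells (29.9% higher, 30.3% lower). Under library size, none of the 5 stayed called higher in CD4+ cells, and Ctsw and Serpina3g did not in CD8+ cells. Ctsd and Serpinb6b turned to lower values in both lineages. At the high dose, of the 8 members other than Ctla2a, Ctla2b and Ctsd rose and Ctsb, Ctsl, Ctsw, Serpinb9 and Serpina3g fell in CD4+ cells, where 70.5% of all genes were called (34.7% higher, 35.8% lower). In CD8+ cells Ctla2b, Ctsd, Ctsl and Ctsw rose and Ctsb, Serpinb6b, Serpinb9 and Serpina3g fell, where 74.0% of all genes were called (37.1% higher, 36.9% lower). The rise of Ctsd in both lineages and of Ctsw in CD8+ cells turned to lower values under library size. Between the doses 6 of the same 8 members passed in CD4+ cells, where 41.2% of all genes were called, and 6 of 8 in CD8+ cells, where 41.0% were called. At the high dose against saline, the groups of pools did not overlap for any of the 8 members other than Ctla2a in CD8+ cells. In CD4+ cells they did not overlap for these members except Ctsw and Serpinb6b. The same held for 72.7% of all genes in CD4+ and 75.8% in CD8+ cells. For the low dose the groups of pools did not overlap for 4 of 9 members in CD4+ and 6 of 9 in CD8+ cells, nor for 57.7% and 66.0% of all genes.

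**Figure D1:**
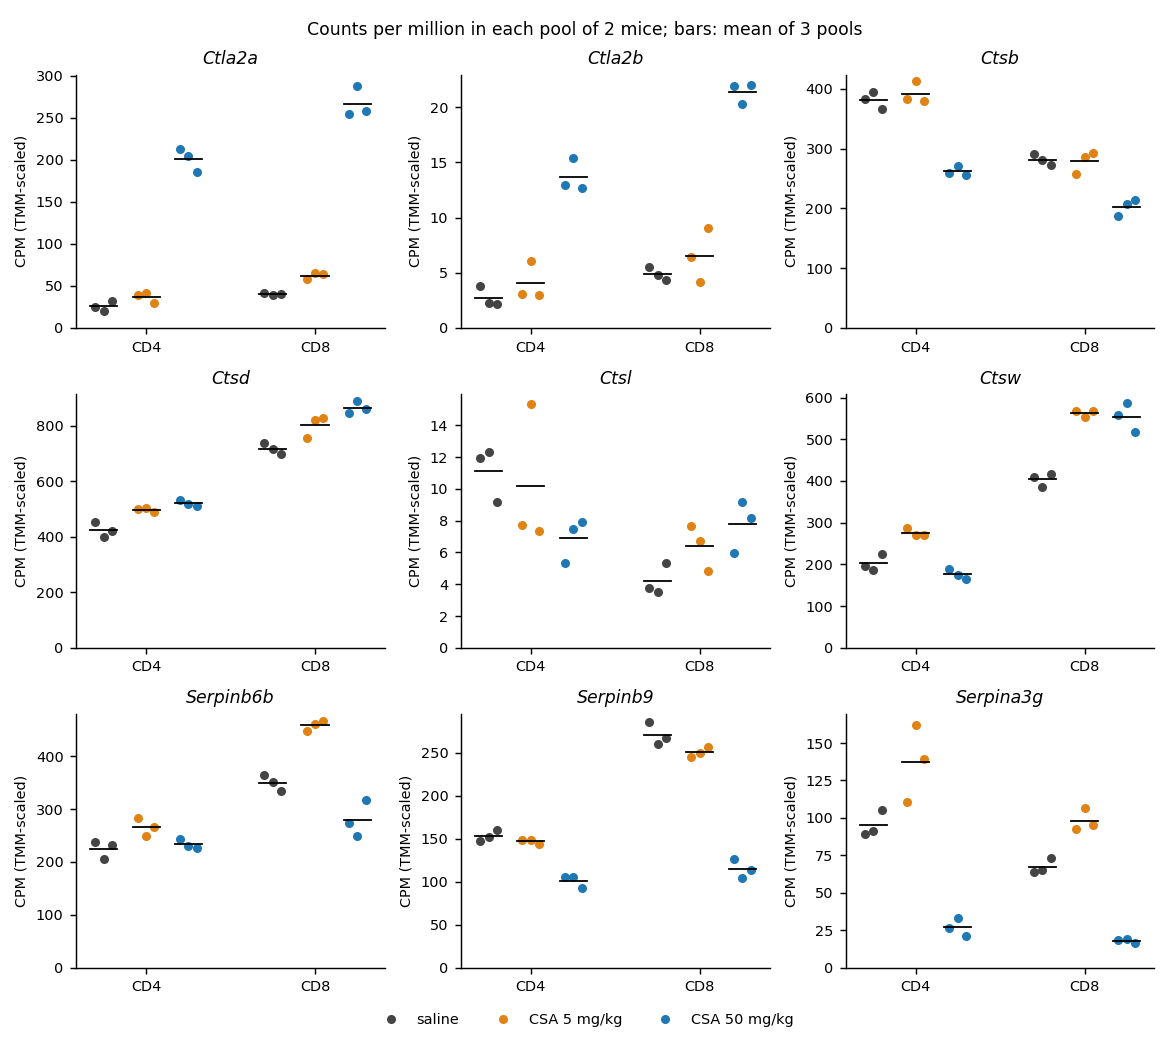
Level of each member in CPM (TMM-scaled, linear axis from 0) in each of 3 pools per treatment (dark grey saline, orange CSA 5 mg/kg, blue CSA 50 mg/kg), CD4+ cells on the left and CD8+ cells on the right of each panel, with a black bar at the mean of 3 pools. Ctla2a and Ctla2b stand higher and Serpina3g, Serpinb9 and Ctsb lower in every pool at the high dose than in every saline pool of both lineages, while the higher Ctsd values at the high dose turn to lower ones with library size.

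Ctla2a was several times higher in every pool of the higher dose. Its CD4+ level was 25.1, 20.5 and 32.2 CPM in the saline pools, at 39.5, 41.4 and 30.2 CPM at the low dose and at 213, 205 and 185 CPM at the high dose. The high-dose pools lay far above all others, while the lowest 5 mg/kg pool lay below the highest saline pool. Its CD8+ level was 41.6, 38.9 and 40.6 CPM with saline, at 58.4, 65.0 and 63.7 CPM at the low dose and at 254, 288 and 258 CPM at the high dose. In CD8+ cells the 3 groups did not overlap. The means were 25.9 ± 5.91, 37.0 ± 5.97 and 201 ± 14.2 CPM in CD4+ and 40.4 ± 1.36, 62.4 ± 3.47 and 267 ± 18.7 CPM in CD8+ cells, from 469, 508 and 3701 UMIs and from 1118, 1096 and 6528 UMIs. The change at the high dose against saline was 7.72-fold in CD4+ cells (log2 2.95, SE 0.11) and 6.61-fold in CD8+ cells (log2 2.72, SE 0.06). From the highest, that change ranked 27 of 10568 genes in CD4+ and 45 of 10841 in CD8+ cells. The low dose did not lead to the choice of the gene. Its test uses the same saline pools as the high-dose change that did, so it is not independent of that choice. At the low dose the change was 1.41-fold in CD4+ cells (log2 0.49, SE 0.14, edgeR adjusted p = 0.0055) and 1.55-fold in CD8+ cells (log2 0.64, SE 0.07, edgeR adjusted p = 4e-07). The CD4+ call at the low dose was lost without saline pool 2 (log2 0.33, edgeR adjusted p = 0.054), with CD4+ cells that held a Cd8b1 UMI left out (log2 0.41, edgeR adjusted p = 0.056) and under library size (log2 0.13, edgeR adjusted p = 0.44). In CD8+ cells the log2 ratio of mean CPM at the low dose was 0.20 by library size. With every cluster held at its saline share that ratio was 0.08.

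Ctla2b, the neighbouring paralog, moved with the same sign from much lower counts. Its CD4+ pools held 3.77, 2.22 and 2.14 CPM with saline, 3.10, 6.10 and 2.99 CPM at the low dose and 12.9, 15.4 and 12.7 CPM at the high dose. Its CD8+ pools held 5.49, 4.83 and 4.37 CPM with saline, 6.41, 4.16 and 9.05 CPM at the low dose and 21.9, 20.3 and 21.96 CPM at the high dose. The pools of the higher dose stood apart from saline in both lineages, and those of the lower dose overlapped saline. It was 5.18-fold higher at the high dose than with saline in CD4+ cells (log2 2.37, SE 0.24, edgeR adjusted p = 1.9e-08) and 4.39-fold higher in CD8+ cells (log2 2.13, SE 0.16, edgeR adjusted p = 1.6e-09). The low dose gave log2 0.61 (SE 0.32, edgeR adjusted p = 0.12) in CD4+ and 0.48 (SE 0.22, edgeR adjusted p = 0.062) in CD8+ cells, which did not pass. Its saline sums rested on 47 CD4+ and 135 CD8+ UMIs, and reads of the paralogs can be shared as described above.

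Serpina3g, the interferon-induced inhibitor of cathepsins B and L, was lower at the higher dose and, on the TMM scale, higher at the lower dose. The CD4+ pools stood at 89.0, 91.5 and 105 CPM with saline, at 110.5, 162 and 139.6 CPM at the low dose and at 26.2, 33.2 and 21.1 CPM at the high dose. The CD8+ pools stood at 63.5, 65.1 and 73.4 CPM, at 92.7, 106 and 95.2 CPM and at 18.3, 19.4 and 16.1 CPM. In both lineages the 3 groups did not overlap, with 5 mg/kg highest and 50 mg/kg lowest. The change at the high dose against saline was 0.279-fold in CD4+ cells (log2 -1.84, SE 0.13, edgeR adjusted p = 7.1e-11) and 0.264-fold in CD8+ cells (log2 -1.92, SE 0.09, edgeR adjusted p = 7.4e-13). The rise at the low dose was 1.44-fold in CD4+ (log2 0.53, SE 0.11, edgeR adjusted p = 0.00032) and 1.46-fold in CD8+ cells (log2 0.54, SE 0.07, edgeR adjusted p = 2.6e-06), and was lost under library size (log2 0.17, edgeR adjusted p = 0.18, and 0.12, edgeR adjusted p = 0.15). From 5 to 50 mg/kg the level changed 0.193-fold in CD4+ cells (log2 -2.37, SE 0.13, edgeR adjusted p = 5e-12) and 0.182-fold in CD8+ cells (log2 -2.46, SE 0.09, edgeR adjusted p = 3.4e-13).

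Serpinb9, the inhibitor of granzyme B, fell at the higher dose and by more in CD8+ cells. Its CD8+ pools stood at 286, 260.3 and 268 CPM with saline, 245, 250.3 and 257 CPM at the low dose and 127, 105 and 113 CPM at the high dose. Its CD4+ pools stood at 147, 152 and 161 CPM, at 149, 148 and 144 CPM and at 105, 105 and 93.2 CPM. All high-dose pools lay below all others, and the 5 mg/kg and saline pools overlapped in CD4+ cells. The high dose against saline gave log2 -1.24 (SE 0.06, edgeR adjusted p = 1.4e-12) in CD8+ and -0.61 (SE 0.05, edgeR adjusted p = 3e-09) in CD4+ cells. Low-dose values were -0.11 (edgeR adjusted p = 0.095) in CD8+ and -0.06 (edgeR adjusted p = 0.33) in CD4+ cells, which passed as lower under library size (-0.53, edgeR adjusted p = 1.4e-07, and -0.42, edgeR adjusted p = 1.3e-06).

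Serpinb6b, the inhibitor of granzyme A, differed in its dose pattern between the lineages. Levels in CD8+ cells were 365, 352 and 333 CPM with saline, 448, 461 and 466 CPM at the low dose and 274, 248 and 317 CPM at the high dose. Levels in CD4+ cells were 238, 205 and 231 CPM, at 282, 248 and 266 CPM and at 243, 230.1 and 226 CPM. The CD8+ groups did not overlap, while in CD4+ cells the high-dose pools overlapped those of saline. The CD8+ level rose at the low dose (log2 0.39, SE 0.06, edgeR adjusted p = 3.5e-05) with a value of -0.03 under library size, and fell at the high dose (log2 -0.32, SE 0.06, edgeR adjusted p = 0.00019). The CD4+ level rose at the low dose (log2 0.24, SE 0.06, edgeR adjusted p = 0.0011), with -0.12 under library size and no call outside the cycling clusters (0.13, edgeR adjusted p = 0.14). The high-dose CD4+ value was 0.05 (SE 0.06, edgeR adjusted p = 0.39), and library size turned it to -0.38 (edgeR adjusted p = 2.9e-06).

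Among the cathepsins, Ctsb was lower at the higher dose in both lineages. It stood at 383, 394 and 366 CPM in CD4+ saline pools, at 383, 413 and 379.9 CPM at the low dose and at 259, 271 and 256 CPM at the high dose. The CD8+ pools stood at 290.2, 282 and 272 CPM, at 257, 286 and 293 CPM and at 187, 208 and 214 CPM. The high-dose pools lay below all others. The change at the high dose was 0.688-fold in CD4+ cells (log2 -0.54, SE 0.04, edgeR adjusted p = 4.9e-10) and 0.723-fold in CD8+ cells (log2 -0.47, SE 0.05, edgeR adjusted p = 3.9e-07). Low-dose log2 values were 0.04 (SE 0.04, edgeR adjusted p = 0.46) and -0.01 (SE 0.05, edgeR adjusted p = 0.9), and library size made them -0.32 and -0.43, past the threshold.

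Ctsd, the aspartic cathepsin, was slightly higher with CSA on the TMM scale. Its CD4+ means were 423 ± 26.4, 496 ± 7.17 and 521 ± 10.5 CPM and its CD8+ means 717 ± 20.2, 801 ± 39.3 and 864 ± 21.8 CPM with saline, low dose and high dose. Neither treated group overlapped saline in either lineage. The log2 change at the high dose was 0.30 in CD4+ (SE 0.04, edgeR adjusted p = 1.7e-06) and 0.27 in CD8+ cells (SE 0.04, edgeR adjusted p = 8.3e-06), and the sign turned under library size (-0.14 and -0.26). The low dose gave 0.23 (SE 0.04, edgeR adjusted p = 0.00011) and 0.16 (SE 0.04, edgeR adjusted p = 0.0021), with -0.13 and -0.26 under library size. Its direction therefore rested on the scaling.

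Ctsw, the cathepsin of cytotoxic lymphocytes, parted between the lineages at the higher dose. Ctsw stood in CD8+ cells at 410.1, 385 and 416 CPM with saline, 568, 553 and 568 CPM at the low dose and 559, 587 and 517 CPM at the high dose. In CD4+ cells it stood at 196, 188 and 225 CPM, at 288, 269.6 and 269.9 CPM and at 189, 174 and 165 CPM. In CD8+ cells both doses lay above saline, and in CD4+ cells the low-dose pools alone did. In CD8+ cells it rose at the low dose (log2 0.48, SE 0.05, edgeR adjusted p = 7.3e-08) and at the high dose (log2 0.46, SE 0.05, edgeR adjusted p = 5.9e-08), with 0.06 and -0.07 under library size, neither of which passed. In CD4+ cells it rose at the low dose (log2 0.44, SE 0.06, edgeR adjusted p = 3.4e-06), with 0.08 under library size, and fell at the high dose (log2 -0.21, SE 0.06, edgeR adjusted p = 0.0049). The CD4+ fall was not called without saline pool 3 (-0.12, edgeR adjusted p = 0.073) or outside the cycling clusters (-0.09, edgeR adjusted p = 0.32).

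Ctsl, the cysteine cathepsin that the Ctla2a product inhibits, was measured from few counts, 106 to 200 UMIs per group and lineage. In CD4+ cells it stood at 11.9, 12.3 and 9.16 CPM with saline, at 7.75, 15.4 and 7.38 CPM at the low dose and at 5.34, 7.51 and 7.91 CPM at the high dose. In CD8+ cells it stood at 3.78, 3.52 and 5.31 CPM, at 7.64, 6.70 and 4.84 CPM and at 5.96, 9.16 and 8.17 CPM. High-dose pools lay below saline in CD4+ and above saline in CD8+ cells. The CD4+ fall was log2 -0.67 (SE 0.23, edgeR adjusted p = 0.014), not called without CSA 50 mg/kg pool 1 (-0.52, edgeR adjusted p = 0.061) or saline pool 2 (-0.58, edgeR adjusted p = 0.067), and the CD8+ rise was log2 0.89 (SE 0.21, edgeR adjusted p = 0.0011). The clusters that the study named Fcer1ghi, CD4 C8 and CD8 C6, held 9.5%, 14.3% and 46.5% of CD4+ and 17.9%, 21.7% and 47.9% of CD8+ Ctsl UMIs with saline, low dose and high dose, while they held 4.10% to 5.60% of the cells. With these clusters left out, a choice made after seeing the data, the CD4+ value was -1.41 (edgeR adjusted p = 0.00017) and the CD8+ rise was not called (0.27, edgeR adjusted p = 0.32), as it was not under library size (0.36, edgeR adjusted p = 0.13).

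**Figure D2:**
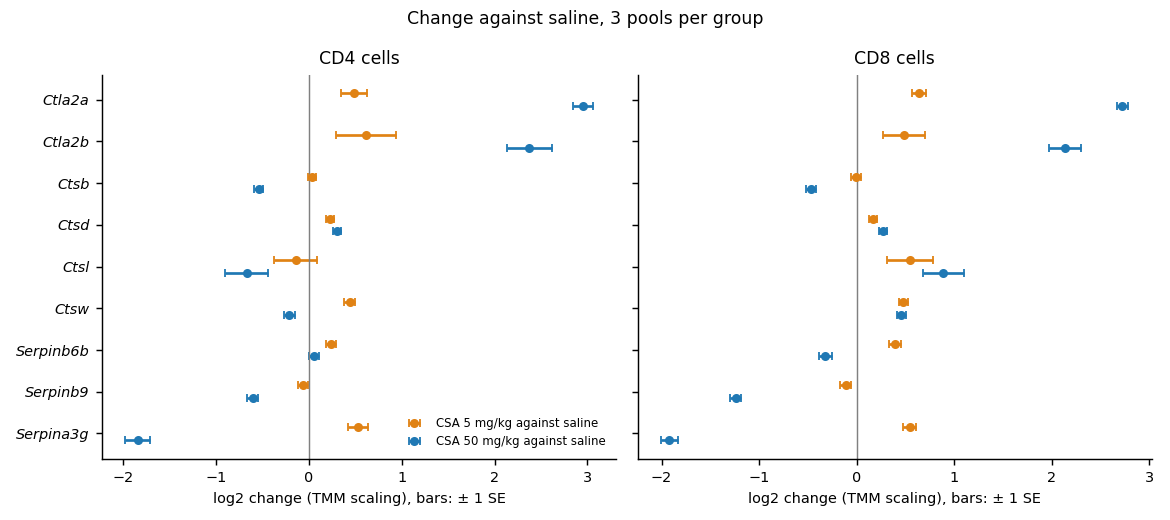
Log2 change of each member against saline (x axis, TMM scaling, bars ± 1 SE) in CD4+ and CD8+ cells, orange for CSA 5 mg/kg and blue for CSA 50 mg/kg, 3 pools per group. Ctla2a and Ctla2b lie above 2 and Serpina3g below -1.8 at the high dose in both lineages, and the small positive values of Ctsd, of Ctsw in CD8+ cells at the high dose and of Serpinb6b at the low dose turn negative under library size.

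The lineages already differed in the saline pools, where all 9 members passed the test of CD8+ against CD4+ cells of the same pool, 6 higher and 3 lower, and 43.0% of all genes were called (21.6% higher, 21.4% lower). Ctsw (log2 1.06, SE 0.04, edgeR adjusted p = 3.6e-23), Serpinb9 (0.88, SE 0.04, edgeR adjusted p = 1.4e-19), Ctsd (0.83, SE 0.03, edgeR adjusted p = 3.6e-22) and Serpinb6b (0.71, SE 0.04, edgeR adjusted p = 1.8e-17) were higher in CD8+ cells. Ctla2a (0.70, SE 0.09, edgeR adjusted p = 4.1e-08) was higher in CD8+ cells as well, in saline pools that were part of the comparison behind its choice. Ctla2b was higher too (0.95, SE 0.24, edgeR adjusted p = 0.0016), but not by DESeq2 (0.96, DESeq2 adjusted p = 0.14). Ctsb (-0.37, SE 0.03, edgeR adjusted p = 6.9e-12), Serpina3g (-0.44, SE 0.05, edgeR adjusted p = 8.6e-09) and Ctsl (-1.33, SE 0.19, edgeR adjusted p = 4.8e-07) were lower in CD8+ cells. The CD8 lineage gene Cd8b1 stood at 141 to 153 CPM in the CD4+ saline sums, and its part in these differences was not tested.

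Whether CSA changed the lineages differently was tested as an interaction over the 18 sums, with pool as a block. At the low dose none of the 9 members passed by edgeR, against 3.65% of all genes (2.12% higher and 1.54% lower in CD8+ cells). Without adjustment 1787 of 11001 genes had p under 0.05. DESeq2 called none of those to which it gave a p. For the high dose 4 of the 8 members other than Ctla2a passed, against 19.8% of all genes (9.33% higher and 10.4% lower in CD8+ cells). Ctsw (log2 difference 0.64, SE 0.06, edgeR adjusted p = 2.3e-08) and Ctsl (1.52, SE 0.28, edgeR adjusted p = 0.0003) changed more upward in CD8+ cells, and Serpinb9 (-0.66, SE 0.07, edgeR adjusted p = 6.9e-07) and Serpinb6b (-0.40, SE 0.08, edgeR adjusted p = 0.00062) more downward. The differences for Ctla2b (-0.26, SE 0.33, edgeR adjusted p = 0.66), Serpina3g (-0.09, SE 0.12, edgeR adjusted p = 0.65), Ctsb (0.05, SE 0.06, edgeR adjusted p = 0.65) and Ctsd (-0.06, SE 0.05, edgeR adjusted p = 0.5) did not pass. That of Ctla2a was -0.25 (SE 0.12). Without the Fcer1ghi clusters Serpina3g passed as well (-0.44, edgeR adjusted p = 0.044), and Ctsl kept its call (1.64, edgeR adjusted p = 0.0012).

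The study divided CD4+ cells into 13 and CD8+ cells into 9 clusters. Levels per cluster are CPM by library size over pools in which the cluster had 10 or more cells, and since clusters were made from the same counts, their order is a description. With saline, Ctla2a was highest in C1, the Cd226lo effector cells, in both lineages, at 74.0 ± 11.4 CPM in CD4+ and 95.9 ± 4.85 CPM in CD8+ cells. The activated Cd226hi effectors of C0 held 38.5 ± 8.15 and 74.1 ± 15.5 CPM. The order had turned at the high dose, with 263 ± 24.9 CPM in C0 and 198 ± 15.8 CPM in C1 of CD4+ cells and 423 ± 12.8 and 286 ± 26.8 CPM in those of CD8+ cells. The Tcf7hi precursor-like cells of CD4 C2 went from 18.3 ± 10.8 to 219 ± 61.7 CPM. Cluster CD4 C7 went from 22.8 ± 13.9 to 202 ± 26.3 CPM and cluster CD8 C8 from 62.0 ± 14.7 to 323 ± 24.3 CPM. The study named C7 cytotoxic, but with saline its level of the granzyme gene Gzmb (358 CPM) was below that of every other CD4+ cluster except C2 (332 CPM), and at the high dose it was 1747 CPM. The study named CD8 C8 exhausted, while over all groups it was the highest cluster for 0 of 4 exhaustion genes and among the top 3 for 3 of them.

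The naive clusters differed from each other. Naive CD4+ cells (C9) held 17.0 ± 8.17 CPM of Ctla2a with saline, 22.5 ± 13.7 CPM at the low dose and 19.2 ± 20.2 CPM at the high dose, values within each other's spread. Naive CD8+ cells (C7) held 51.0 ± 20.9, 19.5 ± 18.04 and 132 ± 63.7 CPM. Both clusters were small, with 94 to 110 CD4+ and 115 to 161 CD8+ cells per group. In all other clusters with at least 2 pools per group, every mean of Ctla2a at the high dose lay above that with saline.

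Serpina3g stood highest in the Fcer1ghi clusters. With saline, CD4 C8 held 520.5 ± 48.7 CPM and CD8 C6 398 ± 40.6 CPM, while the other clusters with at least 2 such pools held 33.3 to 165.5 CPM in CD4+ and 56.1 to 112 CPM in CD8+ cells. At the high dose, CD4 C8 and CD8 C6 held 120.1 ± 42.7 and 119 ± 37.5 CPM, again the highest. In CD4 C1 the level went from 96.1 ± 7.88 to 5.12 ± 1.68 CPM. The Fcer1ghi clusters also stood highest in the complement genes C1qa and C1qb, which macrophages make, at 1086 to 1142 CPM in CD4 C8 and 848 to 946 CPM in CD8 C6 against at most 100.2 CPM elsewhere, with the monocyte gene Lyz2 at 3.56 to 20.3 CPM in CD4 C8. The part of these transcripts was not tested. The share of Serpina3g UMIs from these clusters was 16.2%, 16.3% and 20.9% in CD4+ and 14.8%, 17.6% and 37.8% in CD8+ cells over the 3 groups. With them left out, the change at the high dose was log2 -1.92 in CD4+ and -2.33 in CD8+ cells.

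Each cathepsin had its own order of clusters. Among clusters with at least 2 such pools, Ctsl was highest with saline in CD4 C7 (64.6 ± 27.1 CPM) and the Fcer1ghi CD4 C8 (33.3 ± 13.6 CPM), and these clusters moved apart with dose. C7 at the high dose held 1.52 ± 1.32 CPM and C8 83.2 ± 38.0 CPM, and CD8 C6 went from 28.8 ± 18.7 to 70.2 ± 12.99 CPM. By the same order Ctsb was highest in the Fcer1ghi clusters (971 ± 81.8 and 714 ± 81.1 CPM with saline) and lowest in naive cells (155 ± 34.6 and 116 ± 8.32 CPM). Ctsd was highest in C0 of both lineages (693 ± 57.4 and 1141 ± 58.8 CPM). Ctsw ranged from 55.3 ± 28.7 CPM in naive CD4+ cells to 395 ± 75.5 CPM in CD4 C1, while all CD8+ clusters held 442 to 646 CPM.

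The granzyme inhibitors stood highest in cycling clusters. With saline, Serpinb9 was highest in the cycling clusters CD4 C6 (291 ± 39.0 CPM) and CD8 C4 (485 ± 25.3 CPM), and lowest in the Tcf7hi CD4 C2 (58.3 ± 2.21 CPM) and naive CD8+ cells (54.6 ± 34.7 CPM). Serpinb6b was highest in the cycling clusters CD4 C5 (432 ± 61.1 CPM) and CD8 C3 (548 ± 48.6 CPM). The cycling genes Mki67, Pclaf and Top2a summed to 1446 to 1590 CPM with saline, 847 to 1015 CPM at the low dose and 806 to 884 CPM at the high dose in CD4+ cells, and to 2351 to 2515, 1267 to 1416 and 785 to 907 CPM in CD8+ cells. Their part in the falls of both serpins over whole pools was not tested, and the within-cluster values follow. Cluster shares were also held at the saline mean, on the library-size scale, at the high dose. Serpinb9 then gave log2 -1.27 in CD4+ and -1.74 in CD8+ cells, beside -1.04 and -1.77 as measured. Serpinb6b gave -0.50 and -1.20, beside -0.39 and -0.85.

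**Figure D3:**
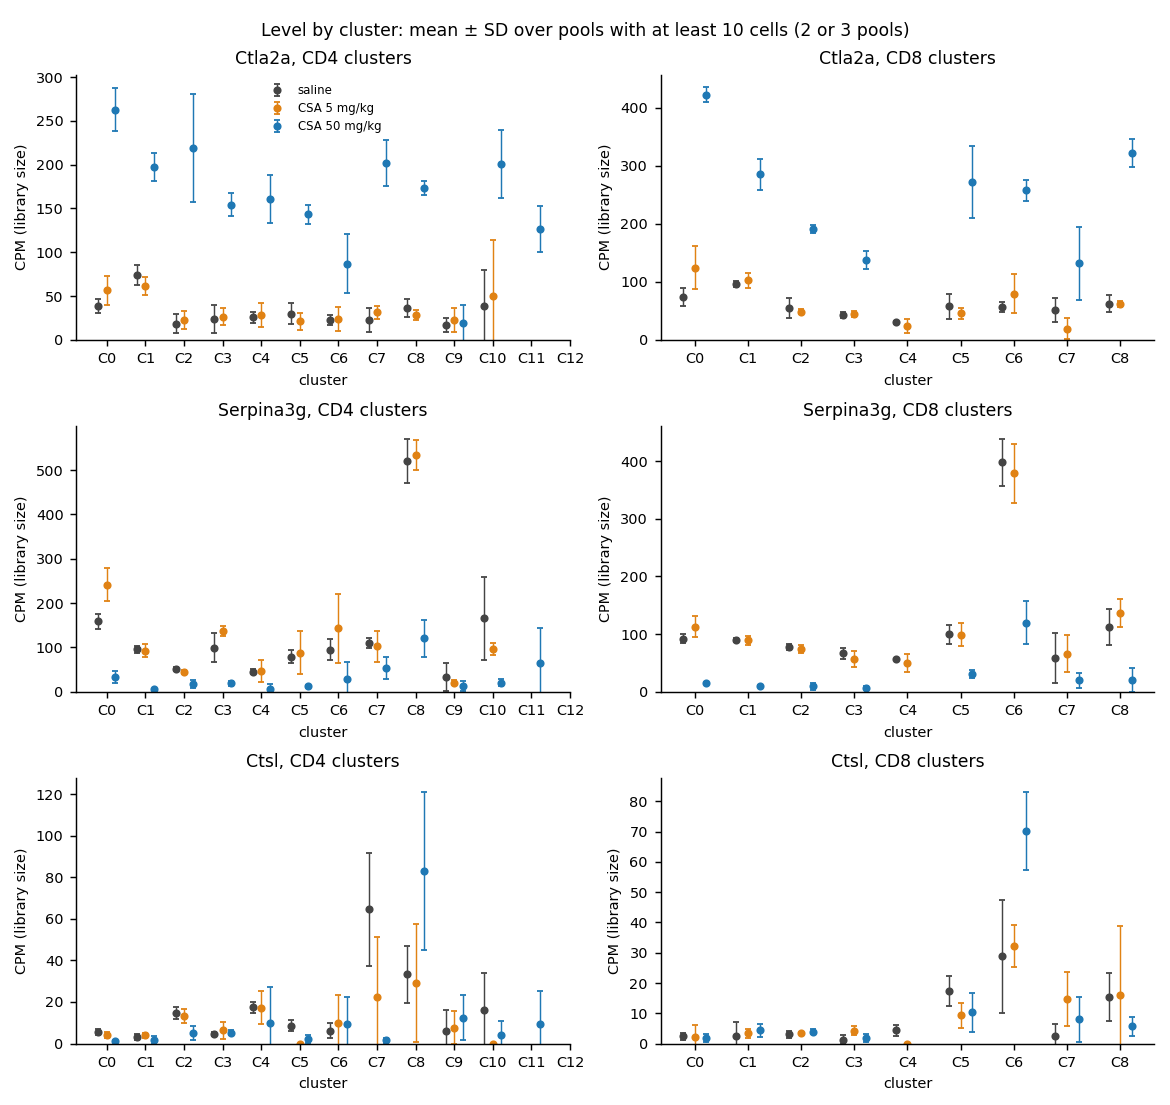
Level of Ctla2a, Serpina3g and Ctsl (CPM by library size, linear axis from 0) in each CD4+ cluster (left) and CD8+ cluster (right), mean ± SD over the 2 or 3 pools with at least 10 cells, dark grey for saline, orange for 5 mg/kg and blue for 50 mg/kg. Ctla2a is higher at the high dose in every cluster shown with both groups, though by less than the spread in naive CD4 C9, and Serpina3g stands highest in CD4 C8 and CD8 C6 in each group.

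Cluster shares changed with dose, so 50 mg/kg was compared with saline inside each cluster, in 11 CD4+ and 8 CD8+ clusters. For the 8 members other than Ctla2a, 37 of 65 pairs of cluster and member passed in CD4+ cells, 4 higher and 33 lower, against 30.2% of all pairs of cluster and gene (14.8% higher, 15.4% lower), with 2.88% to 54.8% in single clusters. In CD8+ cells 35 of 53 passed, 10 higher and 25 lower, against 43.4% (21.3% higher, 22.1% lower), with 3.52% to 58.9% in single clusters. The log2 change of Ctla2a, given as a description, was positive in each of the 10 CD4+ and 8 CD8+ clusters where it passed the filter on low counts, which left out naive CD4 C9, from 1.5 (CD4 C1) to 3.73 (CD4 C2) in CD4+ and from 1.39 (naive CD8 C7) to 3.06 (CD8 C0) in CD8+ cells. Ctla2b passed as higher in CD4 C0 (2.83, SE 0.40, edgeR adjusted p = 5.2e-08) and in CD8 C0, C1 and C2, and had too few counts elsewhere, apart from CD4 C1 (1.04, edgeR adjusted p = 0.16).

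Serpina3g passed as lower in 7 of 8 CD4+ and 7 of 8 CD8+ clusters, from -0.79 in CD4 C7 to -4.10 in CD4 C1 (SE 0.27, edgeR adjusted p = 1.8e-17). In the Fcer1ghi clusters it gave -1.86 (SE 0.19, edgeR adjusted p = 3.7e-11) in CD4+ and -1.43 (SE 0.17, edgeR adjusted p = 6.4e-09) in CD8+ cells. Serpinb9 passed as lower in 8 of 10 and 6 of 8 clusters and Ctsb in 9 of 11 and 6 of 8. Serpinb6b passed as lower in 6 of 8 CD8+ clusters and in CD4 C1 and C9 alone of 11 CD4+ clusters. Ctsw passed as lower in 5 of 10 CD4+ clusters (C0, C1, C3, C5 and C8) and as higher in CD8 C0, C2 and C3, with -0.12 and -0.30 in CD8 C2 and C3 under library size. Ctsd passed as higher in CD4 C0 and C2 and CD8 C0, C3 and C5 and as lower in CD4 C1, and library size gave -0.20 in CD4 C0, -0.25 in CD8 C0 and -0.28 in CD8 C3. Ctsl had enough counts in 4 clusters. It fell in CD4 C7 (-4.82, SE 0.92, edgeR adjusted p = 0.00023), from 64 to 2 UMIs, a ratio of pooled levels of 0.0237 with a 95% exact interval of 0.00282 to 0.0894 for counting error alone. It rose in CD4 C8 (1.27, SE 0.41, edgeR adjusted p = 0.014) and CD8 C6 (1.45, SE 0.34, edgeR adjusted p = 0.00082), and gave 0.71 (SE 0.41, edgeR adjusted p = 0.15) in CD8 C2. The direction of Ctsl thus differed between CD4+ clusters, which was not tested as a difference.

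**Figure D4:**
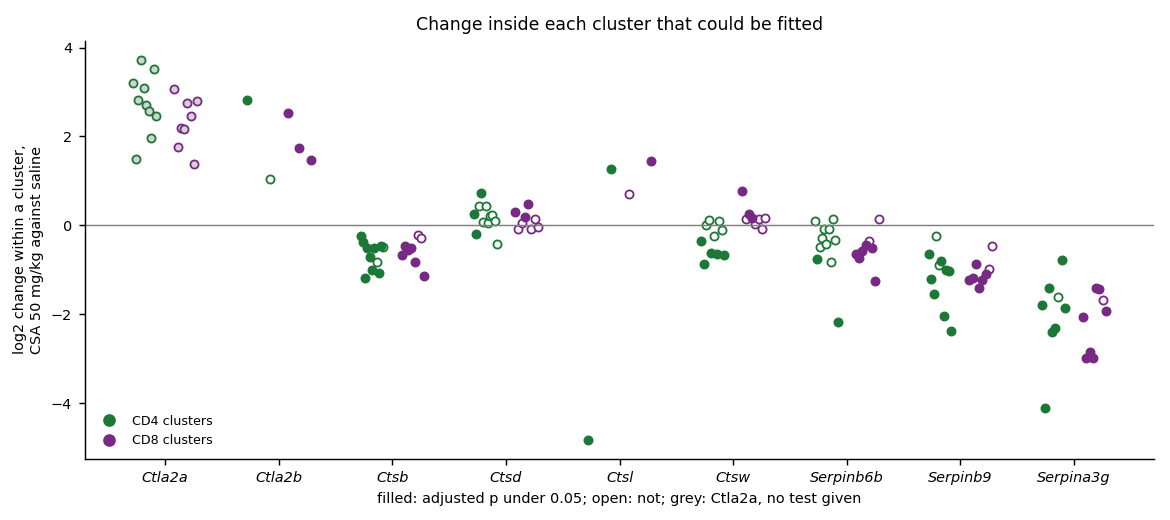
Log2 change within each fitted cluster, CSA 50 mg/kg against saline (y axis, TMM scaling), green for CD4+ and purple for CD8+ clusters, filled where edgeR adjusted p was under 0.05, open where not, grey for Ctla2a, which has no test. All Ctla2a points lie above 0 and all Serpina3g, Ctsb and Serpinb9 points below 0, while some Ctsd and Ctsw points above 0 turn negative under library size.

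With every cluster held at its mean share in the saline pools, the log2 ratio of mean CPM by library size at the high dose was 2.50 in CD4+ and 2.14 in CD8+ cells for Ctla2a, beside 2.51 and 2.19 as measured. For Serpina3g the values were -2.08 and -2.80, beside -2.27 and -2.44. For Ctla2b in CD4+ cells the value was 2.85 beside 1.90, for Serpinb6b in CD8+ cells -1.20 beside -0.85, and for Ctsl -0.74 beside -1.12 in CD4+ and -0.12 beside 0.36 in CD8+ cells. The other values moved by less than those of Serpinb6b and Serpina3g in CD8+ cells. Some clusters common with saline held few cells at the high dose, with 45 in CD4 C4, 34 in CD4 C6 and 20 in CD8 C4. With saline they held 733, 443 and 1015 cells. Ctla2b had 12 UMIs in CD4 C4 over all groups. Values at saline shares are uncertain where such clusters weigh much.

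The share of cells with a UMI was compared after each cell was thinned to 2000 UMIs, which left out 395, 452 and 80 CD4+ and 121, 83 and 8 CD8+ cells with saline, low dose and high dose. Ctla2a was then found in 6.01% ± 1.20, 6.15% ± 0.952 and 28.6% ± 2.03 of CD4+ cells and in 10.1% ± 0.200, 11.3% ± 0.9504 and 34.8% ± 2.89 of CD8+ cells (SD, n = 3 pools). The low-dose share stayed within the spread in CD4+ cells. In CD8+ cells the low-dose pools, at 10.3% to 12.2%, overlapped those of saline, at 10.0% to 10.4%. In naive CD4+ cells 1 of 54, 3 of 96 and 2 of 83 cells had a Ctla2a UMI, at median depths before thinning of 2591, 3283 and 3418 UMIs against 3268, 4831 and 6073 UMIs over all CD4+ cells. In naive CD8+ cells 13 of 110, 7 of 153 and 25 of 161 had one, at 3573, 4530 and 4995 UMIs against 4189.5, 6237 and 7186.5 UMIs, so that with saline the share over all CD8+ cells did not exceed that of naive cells. Without thinning the shares were 9.61%, 12.2% and 54.8% in CD4+ and 18.5%, 26.2% and 67.3% in CD8+ cells.

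Serpina3g was found after thinning in 16.6% ± 1.60, 17.7% ± 4.17 and 3.76% ± 0.292 of CD4+ and in 14.96% ± 1.09, 15.3% ± 2.41 and 2.93% ± 0.705 of CD8+ cells. The low-dose pools overlapped those of saline, at 13.7% to 22.1% beside 14.96% to 18.2% in CD4+ and 12.9% to 17.7% beside 13.8% to 15.9% in CD8+ cells. Naive CD4+ cells had one in 3 of 54, 4 of 96 and 2 of 83 cells and naive CD8+ cells in 8 of 110, 13 of 153 and 6 of 161, with a mean over pools of 3.03% and 3.77% at the high dose. At the high dose the share over all CD8+ cells did not exceed that of naive cells, and the CD4+ share was near it, at lower depths in the naive cells. The UMIs were not spread evenly, since CD8 C6 held 5.46% of the CD8+ cells and 37.8% of their Serpina3g UMIs at that dose. Without thinning the shares were 24.1%, 28.7% and 8.99% in CD4+ and 25.8%, 31.8% and 7.66% in CD8+ cells.

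Other genes of the same families and of the lysosome were taken from lists. Of 7 other cathepsins tested, 2 rose and 2 fell in CD4+ and 4 rose and 2 fell in CD8+ cells at the high dose, where 34.7% and 37.1% of all genes were higher and 35.8% and 36.9% lower, with median log2 changes of 0.01 and 0.52 beside -0.01 and 0.00 over all genes, and 0 rose and 5 fell, and 1 rose and 3 fell, under library size. Ctsc, which activates granzymes, fell from 222 ± 13.03 to 142 ± 4.56 CPM in CD8+ cells (log2 -0.64, SE 0.05, edgeR adjusted p = 1.6e-09). Ctsa, a carboxypeptidase of the lysosome, rose from 205 ± 4.88 to 333 ± 15.4 CPM in CD8+ cells (log2 0.70, SE 0.04, edgeR adjusted p = 1.1e-10), and by 0.17 under library size. Ctse, an aspartic protease, fell in CD4+ cells (log2 -0.55, SE 0.12, edgeR adjusted p = 0.00054), and Ctsz rose in CD4+ cells (0.44, SE 0.07, edgeR adjusted p = 1.3e-05), with a value of 0.00 under library size.

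Among the cystatins, which inhibit cysteine cathepsins, Cstb and Cst3 rose in both lineages. Of 4 tested in CD4+ cells 2 rose and 1 fell at the high dose, and all 3 tested in CD8+ cells rose, with medians of 0.19 and 0.67, and under library size 2 rose and 1 fell in either lineage. Of all genes 34.7% were higher and 35.8% lower in CD4+ cells, and 37.1% and 36.9% in CD8+ cells. Cstb, the cystatin of the cytoplasm, went from 71.9 ± 1.45 to 129 ± 3.88 and 144 ± 9.96 CPM in CD4+ and from 60.2 ± 3.09 to 124 ± 3.24 and 149.97 ± 5.45 CPM in CD8+ cells. The high dose thus gave log2 1.00 (SE 0.06, edgeR adjusted p = 2e-12) and 1.31 (SE 0.05, edgeR adjusted p = 1.6e-13), and 0.56 and 0.78 under library size. Cst3, the secreted cystatin, rose by log2 0.71 (SE 0.05, edgeR adjusted p = 1.9e-10) and 0.67 (SE 0.05, edgeR adjusted p = 3.2e-09), and by 0.27 and 0.14 under library size.

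Of the other serpins, Serpina3f, the neighbour and relative of Serpina3g, was the only other clade A gene tested and fell in both lineages. It went from 25.6 ± 1.94 to 37.4 ± 6.94 and 11.3 ± 3.38 CPM in CD4+ cells (log2 -1.20 at the high dose, SE 0.16, edgeR adjusted p = 1.2e-06) and by -1.75 on the log2 scale in CD8+ cells (edgeR adjusted p = 7.3e-08). Of 4 other clade B serpins, 1 rose and 1 fell in CD4+ and 1 rose and 2 fell in CD8+ cells at the high dose, with medians of -0.26 and -0.13. Under library size 1 rose and 3 fell in CD4+ and 1 rose and 2 fell in CD8+ cells. Of all genes 34.7% were higher and 35.8% lower in CD4+ cells, and 37.1% and 36.9% in CD8+ cells. Serpinb6a, a paralog of Serpinb6b, rose from 40.9 ± 1.45 to 93.4 ± 10.2 CPM in CD4+ (log2 1.19, SE 0.08, edgeR adjusted p = 1.1e-11) and from 50.6 ± 5.10 to 93.0 ± 5.84 CPM in CD8+ cells (0.88, SE 0.08, edgeR adjusted p = 9.5e-09). Serpinb1a, an inhibitor of elastase-like proteases, fell from 26.1 ± 3.61 to 4.95 ± 1.65 CPM in CD8+ cells (log2 -2.34, SE 0.16, edgeR adjusted p = 4.6e-10). Of 3 serpins of other clades, 1 fell in CD4+ and 2 fell in CD8+ cells, beside the same shares of all genes, and 1 and 3 fell under library size.

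Of the granzymes and granule proteins, 5 of 9 rose and 3 fell in CD4+ and 6 of 10 rose and 2 fell in CD8+ cells, against 34.7% higher and 35.8% lower and 37.1% higher and 36.9% lower among all genes, with medians of 0.43 and 0.50, while under library size 2 rose and 4 fell and 3 rose and 4 fell. The targets of the clade B members, granzymes B and A, moved in opposite directions in CD4+ cells. Gzmb rose from 564 ± 32.3 to 1219.8 ± 163 CPM (log2 1.11, SE 0.07, edgeR adjusted p = 4.8e-12) and Gzma fell from 312 ± 62.8 to 75.7 ± 31.2 CPM (-2.04, SE 0.18, edgeR adjusted p = 1.5e-09). In CD8+ cells, on the TMM scale, Gzma rose from 1167 ± 172 to 1406 ± 119 CPM (0.27, SE 0.09, edgeR adjusted p = 0.0091), and library size turned this to -0.26 (edgeR adjusted p = 0.01). Gzmb did not pass there (0.10, SE 0.08, edgeR adjusted p = 0.31), and library size gave -0.43 (edgeR adjusted p = 0.00017). In the same cells Gzmc (2.51, SE 0.20, edgeR adjusted p = 2.7e-09) and Gzmm (2.47, SE 0.16, edgeR adjusted p = 1.7e-10) rose, from 12.3 ± 3.47 to 70.2 ± 19.5 CPM and from 13.2 ± 1.88 to 73.6 ± 19.2 CPM. Of 34 lysosome enzymes and membrane proteins, 12 rose and 12 fell in CD4+ and 14 rose and 10 fell in CD8+ cells, shares near those of all genes in CD4+ cells (34.7% and 35.8%) and beside 37.1% and 36.9% in CD8+ cells, with medians of -0.02 and 0.08, and 2 rose and 22 fell and 3 rose and 22 fell under library size. Igf2r, the receptor that carries cathepsins to the lysosome, fell in CD4+ (-0.76, SE 0.10, edgeR adjusted p = 1e-06) and CD8+ cells (-1.40, SE 0.06, edgeR adjusted p = 7.4e-13). Gnptab, which makes the sugar tag that this receptor binds, fell in CD8+ cells (-1.29, SE 0.06, edgeR adjusted p = 4.6e-13), and Lamp2, a lysosome membrane protein, in CD4+ cells (-0.93, SE 0.09, edgeR adjusted p = 1.4e-08).

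**Figure D5:**
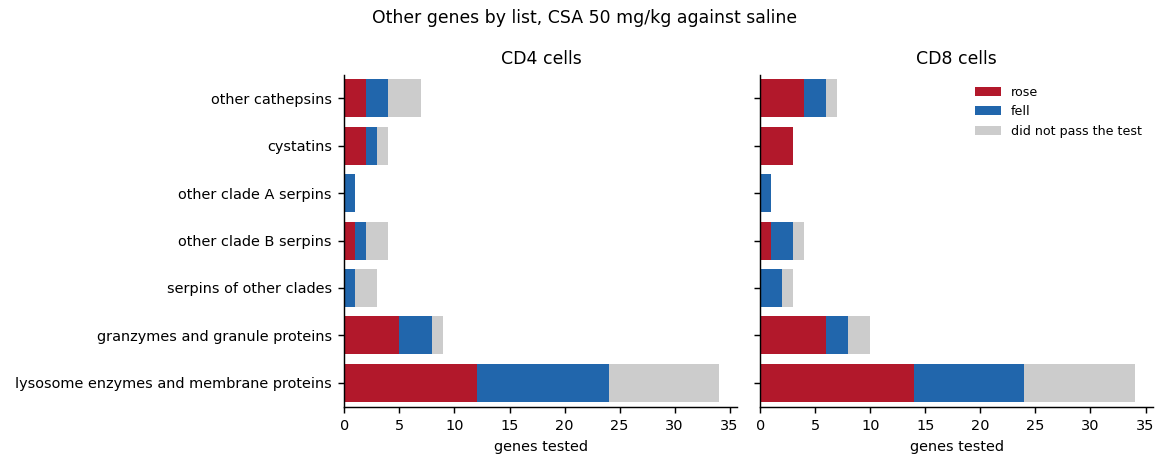
Number of genes per list (x axis) that rose (red), fell (blue) or did not pass the test (grey) at the high dose against saline in CD4+ (left) and CD8+ cells (right), edgeR with TMM scaling. The 34 lysosome genes divide into 12 up and 12 down in CD4+ and 14 up and 10 down in CD8+ cells, and under library size into 2 up and 22 down and 3 up and 22 down.

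Across the 18 sums of pool and lineage, the genes whose log2 CPM ran closest to each member were found by Pearson's r among 3153 genes of at least 50 CPM. The sums share captures, treatments and lineages, so r describes the profile and has no test. Closest to Ctla2a were Itgb7, an integrin chain (r = 0.99), Epsti1 (0.99) and Bin2 (0.98). Closest to Serpina3g were the chemokine gene Ccl1 (0.95), Dynll2 (0.94) and Chd3 (0.94), and closest to Ctsd was Nkg7, a granule gene of cytotoxic cells (0.98). Ctsw ran closest to Efhd2 (0.97), Cd27 (0.97) and the CD8 lineage gene Cd8b1 (0.96). Ctsb ran closest to Nfkbiz (0.97), Serpinb9 to Cbx3 (0.97), Serpinb6b to Rpa2 (0.96) and Ctla2b to Panx1 (0.96). For Ctsl the closest gene was the cysteine cathepsin Ctss, at 0.78. Among the members, Ctla2a and Ctla2b gave 0.95, Ctla2a and Serpina3g -0.90, Ctla2a and Ctsb -0.89, Ctsd and Ctsw 0.92, and Serpinb6b and Serpinb9 0.80.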

How the data were processed

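Per the labels and the study's methods, RNA of sorted spleen T cells was captured in 3 droplet runs with 5′ v2 chemistry, 1 per treatment. The submitters' processing notes name Cell Ranger, Seurat 3.0.0 and mm10. The authors deposited UMI counts per gene and cell, the hashtag pool, the cluster and the fraction of mitochondrial counts of each cell. The deposited cells were used as filtered, and no doublet caller was run. How doublets were treated before deposit is not given in the sources used here. UMIs per cell summed to the deposited number in 21204 of 21204 cells.

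Counts were summed per pool and lineage without TEa cells, and per cluster where a pool had at least 10 cells. edgeR 4.0.16 (R 4.3.3) with its low-count filter, TMM and the quasi-likelihood test was fitted to all 9 pools per lineage, with Benjamini-Hochberg adjustment over all genes and a threshold of 0.05. Interaction and lineage fits had the pool as a block, since both lineages came from the same mice. Alternatives were library-size scaling, DESeq2 1.42.0, no filter, only the groups compared, TEa cells kept, cells of at least 2000 UMIs, cells outside cycling clusters, clusters held at their saline share, the hashtag number as a block, each pool left out in turn, and 2 choices made after seeing the data, which left out the Fcer1ghi clusters or CD4+ cells with a Cd8b1 UMI. Members and lists were chosen with earlier results of these data known. Named list genes were the 2 per lineage with the largest absolute change at 50 mg/kg, past the threshold and at a mean of at least 20 CPM. The marker lists were those of T cells, both lineages, cycling cells, macrophages, NK cells, mast cells, erythroid cells and neutrophils, and 1 further list is not reported here. The fits were tested on simulated data.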

Additional observations from a re-analysis of the deposited data

Results flagged for a closer look

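For 4 members the change at CSA 50 mg/kg against saline differed between CD8+ and CD4+ cells by the test of the difference itself, with the pool as a block and 9 sums per lineage. The difference, CD8+ minus CD4+ on the log2 scale, was 0.64 for Ctsw (SE 0.06, edgeR adjusted p = 2.3e-08), with changes of 0.46 in CD8+ and -0.21 in CD4+ cells. For Ctsl it was 1.52 (SE 0.28, edgeR adjusted p = 0.0003), with changes of 0.89 and -0.67 and 106 to 200 UMIs per group and lineage. For Serpinb9 it was -0.66 (SE 0.07, edgeR adjusted p = 6.9e-07), with changes of -1.24 and -0.61. For Serpinb6b it was -0.40 (SE 0.08, edgeR adjusted p = 0.00062), with changes of -0.32 and 0.05. All 4 passed under library size, DESeq2 and no filter, without each pool in turn, without the Fcer1ghi clusters and without CD4+ cells that held a Cd8b1 UMI. Cd8b1 UMIs in CD4+ cells differed between the groups, with 1 or more in 40.7%, 35.4% and 13.6% of CD4+ cells with saline, 5 mg/kg and 50 mg/kg.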

How the results depend on the processing

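The number of members past the threshold stayed within 1.5 times of that reported in every comparison under every alternative, with 2 exceptions: in CD4+ cells at 5 mg/kg against saline library size gave 3, all lower, in place of 5 that rose, and in CD8+ cells at 5 mg/kg fitting without the filter on low counts gave 8, of which 7 rose and 1 fell, in place of 5. Leaving out each pool in turn gave 4 to 6 and 5 to 7 members at 5 mg/kg against saline in CD4+ and CD8+ cells, 6 to 7 and 8 to 8 at 50 mg/kg against saline, 5 to 7 and 5 to 6 at 50 against 5 mg/kg, 0 to 0 and 4 to 4 for the difference between the lineages at 5 and 50 mg/kg, 9 to 9 for CD8+ against CD4+ cells in saline pools, and 31 to 37 and 35 to 37 pairs of cluster and member within CD4+ and CD8+ clusters.

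The sign of some single values turned under library size, whose own median over all genes lies below 0. Against saline this gave, at 5 mg/kg, -0.32 for Ctsb, -0.13 for Ctsd and -0.12 for Serpinb6b in CD4+ and -0.26 for Ctsd and -0.033 for Serpinb6b in CD8+ cells, and, at 50 mg/kg, -0.14 for Ctsd and -0.38 for Serpinb6b in CD4+ and -0.26 for Ctsd and -0.074 for Ctsw in CD8+ cells. Within clusters it gave -0.20 and -0.36 for Ctsd in CD4 C0 and C5, -0.36 for Serpinb6b in CD4 C0, -0.25, -0.32 and -0.28 for Ctsd in CD8 C0, C2 and C3, and -0.12, -0.30 and -0.43 for Ctsw in CD8 C2, C3 and C5. With cluster shares held at the saline mean, the ratio of Ctsd at 5 mg/kg in CD4+ cells was 0.12 in place of -0.13. In CD8+ cells at 5 mg/kg that of Serpina3g was -0.027 in place of 0.12 and that of Ctsl -0.35 in place of 0.18. The causes were not tested.

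Hashtag numbers did not pair the pools: over 18 pairs of same-numbered pools the correlation of deviations ran from -0.08 to 0.17, over 0.1 in 1 pair. With the number as a replicate block, 5, 7 and 6 members passed in CD4+ cells and 5, 8 and 5 in CD8+ cells, in the order 5 mg/kg against saline, 50 mg/kg against saline and 50 against 5 mg/kg, and the call of Ctsd at 50 against 5 mg/kg in CD8+ cells was lost (0.11, edgeR adjusted p = 0.058). With the Fcer1ghi clusters left out, chosen after seeing the data, 7 members passed in either lineage at 50 mg/kg, and without CD4+ cells that held a Cd8b1 UMI, also chosen after seeing the data, 4 and 7 passed in CD4+ cells at 5 and 50 mg/kg against saline. Low counts limit Ctla2b and Ctsl, which could not be fitted in most clusters, and calls of both moved with single pools at 5 mg/kg: Ctla2b passed in CD4+ cells without saline pool 1 (0.87, edgeR adjusted p = 0.044) and in CD8+ cells without CSA 5 mg/kg pool 2 (0.73, edgeR adjusted p = 0.0034), and Ctsl in CD4+ cells without CSA 5 mg/kg pool 2 (-0.56, edgeR adjusted p = 0.042). Intervals and pools cover 1 capture per treatment, so capture and treatment cannot be told apart.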
